A study of Mus musculus with 3 samples.

Results

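T cell receptor variable genes were followed in spatial transcriptomes of thymus. The members were all listed genes whose symbol starts with Trav (alpha chain) or Trbv (beta chain), 163 of 54838 listed genes: 128 *Trav* and 35 *Trbv*. Of the *Trav* genes 20, and of the *Trbv* genes 13, are annotated as pseudogenes. The study compared thymus of *Trp53*-/- (KO) and wild-type (WT) mice, and its spatial part holds 3 sections, 1 per mouse. The KO sections came from female C57BL/6 *Trp53*-/- mice of 17 weeks (KO1134) and 21 weeks (KO1308), and the WT section from a female C57BL/6 *Trp53*+/+ mouse of 17 weeks (WT1101). These ages are those of the labels, and the study's supplement gives another age for WT1101. The KO mice descend from a purchased knockout line, and which part of the gene it lacks is not given in the sources used here. The methods give different permeabilisation times for KO and WT tissue, so permeabilisation and genotype cannot be told apart. With 1 WT section there is no test between genotypes, and the intervals in brackets are 95% intervals that cover counting error only.

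A T cell receptor of the common type pairs an alpha with a beta chain. In the thymus, developing T cells join 1 variable segment to downstream segments by recombination. Descendants of a cell with finished rearrangements carry the same ones, and a population grown from such a cell is dominated by its variable genes. Cells that still rearrange a chain as they multiply need not share its variable gene. The beta chain ends in either of the constant regions *Trbc1* and *Trbc2*, a choice that is also kept once the beta rearrangement is finished. A second T cell lineage uses gamma and delta chains, and some *Trav* genes (those with dv in the name) can also join the delta chain.

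In brief, *Trbv12-2* led the beta genes in all 3 sections at 31.3% to 43.4% of their UMIs, and copies of *Trav6-7* led the alpha genes, with 48.6% of *Trav* UMIs in KO1134 against 27.7% in KO1308 and 28.7% in WT1101. A UMI, or unique molecular identifier, is a tag that lets copies of the same captured molecule be counted as 1. Evenness of usage was lowest in KO1134 in both families, for *Trbv* with an interval that overlapped that of KO1308. In KO1134 57.3% of the beta constant UMIs were *Trbc1*, against 34.6% in KO1308 and 37.2% in WT1101.

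The variable regions that carried most UMIs are shown first, because the split between their copies limits what can be counted. *Trav6d-7* lies on chromosome 14 of GRCm38 from 53007612 to 53008098, *Trav6n-7* from 53318798 to 53319284 and *Trav6-7-dv9* from 53709902 to 53710419, all on the plus strand. The annotated exon sequences of the first pair were identical over 358 bases, and the third differed from them at 6 bases, an identity of 98.3%. The last 210 bases, in GENCODE M21 transcripts and with the differing bases in capitals, hold all 6 differences.
Trav6d-7 and Trav6n-7: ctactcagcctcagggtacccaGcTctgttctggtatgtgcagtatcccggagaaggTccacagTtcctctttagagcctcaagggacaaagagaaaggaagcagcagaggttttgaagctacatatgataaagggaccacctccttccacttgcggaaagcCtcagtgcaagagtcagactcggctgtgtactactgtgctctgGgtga
Trav6-7-dv9: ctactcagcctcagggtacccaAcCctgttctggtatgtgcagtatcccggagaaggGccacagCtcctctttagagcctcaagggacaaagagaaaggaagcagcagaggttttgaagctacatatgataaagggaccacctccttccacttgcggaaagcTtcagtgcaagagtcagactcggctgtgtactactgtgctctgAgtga

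No stretch of 50 bases, the length of the sequenced cDNA read, was unique to *Trav6d-7* or to *Trav6n-7* among annotated transcripts. The same held for 42 of the 128 *Trav* genes, which carried 56.4%, 61.1% and 51.6% of *Trav* UMIs in KO1134, KO1308 and WT1101. How reads that match more than 1 copy were assigned is not given in the sources used here, so values of single copies are uncertain and those of merged copies are given beside them.

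The leading beta genes are distinct in sequence. At least 98.8% of the 50-base stretches of *Trbv12-2*, *Trbv3* and *Trbv13-2* were unique to the gene. Their last 90 bases, with those of *Trav14-2*, are shown in the same way, with capitals from the last TGTGC, which opens with the codon of the conserved cysteine where the variable segment meets its joining segment.
Trbv12-2: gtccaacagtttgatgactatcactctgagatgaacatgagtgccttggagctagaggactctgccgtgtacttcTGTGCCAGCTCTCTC
Trbv3: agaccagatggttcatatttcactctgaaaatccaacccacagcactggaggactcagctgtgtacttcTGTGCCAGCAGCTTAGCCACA
Trbv13-2: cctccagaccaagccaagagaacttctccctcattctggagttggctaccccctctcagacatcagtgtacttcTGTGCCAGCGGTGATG
Trav14-2: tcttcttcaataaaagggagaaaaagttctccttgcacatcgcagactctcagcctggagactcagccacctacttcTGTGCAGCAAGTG

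TGTGC on the coding strand stood within the last 30 bases of 86.4% of the 22 *Trbv* genes not annotated as pseudogenes and of 79.6% of such *Trav* genes.

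The sections held 31237062 UMIs (KO1134), 21089885 (KO1308) and 41581477 (WT1101), over 333982, 833765 and 817308 spots. *Trp53* had 17.0 counts per 1000000 UMIs (CPM) in KO1134, 24.9 in KO1308 and 79.0 in WT1101, and was thus lower in both KO sections but not at 0. Thymic epithelial genes *Prss16* and *Psmb11* were present in all sections at 332 and 121, 514 and 124, and 331 and 112 CPM in the same order. Thymocyte genes were lower in the KO sections: *Cd8b1*, a chain of the CD8 coreceptor, had 77.4, 480 and 1112 CPM. The 3 B cell genes *Cd79a*, *Cd79b* and *Ms4a1* summed to 222, 139 and 41.0 CPM. Tissue was divided into bins of 27 µm. Bins with more UMIs of these 3 B cell genes than of 6 thymus genes in the surrounding 7 by 7 bins are called B cell rich, and numbered 2011 of 12014 in KO1134, 521 of 15993 in KO1308 and 0 of 27106 in WT1101. The 6 thymus genes summed to 645, 1389 and 2073 CPM in the same order. The bar for B cell genes was thus lower in the KO sections, and these numbers depend on both sets of genes. Between 3.26% and 3.48% of the barcode sequences listed for a section were also listed for another.

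Variable genes were sparse. *Trbv* genes summed to 113 UMIs in KO1134, 80 in KO1308 and 313 in WT1101, or 3.62 CPM (2.98 to 4.35), 3.79 (3.01 to 4.72) and 7.53 (6.72 to 8.41). *Trav* genes summed to 909, 321 and 1218 UMIs, or 29.1 CPM (27.2 to 31.1), 15.2 (13.6 to 17.0) and 29.3 (27.7 to 31.0). *Trbv* was therefore lower in both KO sections than in WT1101, and *Trav* was lower in KO1308 only. In tissue sections, fewer T cells and less RNA per T cell cannot be told apart. Counted against the constant region of its own chain, *Trbv* had 1.52 UMIs per 1000 UMIs of *Trbc1* and *Trbc2* in KO1134 (1.25 to 1.82), 1.31 in KO1308 (1.04 to 1.63) and 1.10 in WT1101 (0.985 to 1.23). *Trav* had 95.04 per 1000 UMIs of *Trac* in KO1134 (88.7 to 101.7), 57.2 in KO1308 (50.9 to 64.0) and 60.1 in WT1101 (56.7 to 63.7). KO1134 stood above the other sections on this scale for *Trav*, whereas KO1308 and WT1101 overlapped. Within KO1134 the thymus area, defined below, held 688 *Trav* and 5872 *Trac* UMIs, and the B cell rich bins 172 and 3129. The value was thus higher in the thymus area than in those bins. *Trav* genes with dv in the name can also join the delta chain, whose constant region was not counted on this scale. The capture of RNA by its 3′ tail reads mostly the constant regions, which lie between the variable segment and that tail in a finished transcript. Relative to its constant region, *Trbv* was far sparser than *Trav* in every section, and the reason was not tested.

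Of the 35 *Trbv* genes, 18 were detected in KO1134, 17 in KO1308 and 25 in WT1101. In all 3 sections 13 genes were detected, and 10 were detected in none: *Trbv7*, *Trbv8*, *Trbv9*, *Trbv10*, *Trbv11*, *Trbv12-3*, *Trbv18*, *Trbv21*, *Trbv27* and *Trbv28*. For these, 0 of 113, 80 and 313 *Trbv* UMIs allow shares of up to 2.65%, 3.75% and 0.958%. Of the 128 *Trav* genes, 74, 50 and 104 were detected, 38 in all sections and 21 in none. Detection followed depth. In 321 *Trav* UMIs, the number in KO1308, the expected number of detected genes was 49.0 for KO1134 and 70.3 for WT1101, beside 50 in KO1308. In 80 *Trbv* UMIs it was 15.6 and 17.7, beside 17. At equal depth both KO sections thus held fewer *Trav* genes than WT1101, and the *Trbv* numbers lay close together. Genes found in WT1101 alone numbered 21 among *Trav*, none with more than 8 UMIs, and 3 among *Trbv*, none with more than 4. Genes found in KO sections alone numbered 3 among *Trav* and 0 among *Trbv*. Pseudogenes took 0.440% to 1.25% of *Trav* and 1.25% to 2.24% of *Trbv* UMIs.

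*Trbv12-2* (ENSMUSG00000094525), on chromosome 6 of GRCm38 from 41118851 to 41119364, had the most *Trbv* UMIs in each section: 49 in KO1134, 25 in KO1308 and 104 in WT1101. These were 43.4% (34.1 to 53.0), 31.3% (21.3 to 42.6) and 33.2% (28.0 to 38.7) of *Trbv* UMIs, and the intervals overlap. *Trbv3*, from 41048290 to 41048828, had 17, 19 and 60 UMIs, a share of 15.0%, 23.8% and 19.2%. Neither share set a KO section apart from WT. *Trbv12-2* had 2.72 times the UMIs of the next gene in KO1134, 1.32 times in KO1308 and 1.73 times in WT1101, so that it was dominant, with at least 2 times the next gene, in KO1134 and not in the other sections.

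*Trbv13-2*, from 41121396 to 41121832, had 18 UMIs in KO1134, 4 in KO1308 and 24 in WT1101. Its share of 15.9% in KO1134 was 2.08 times that in WT1101 (1.06 to 3.99), whereas in KO1308 the ratio was 0.652 (0.164 to 1.90). A gene was counted as apart from WT where it had at least 20 UMIs over the pair of sections and its share within the family differed at least 2-fold with an interval that excluded 1. *Trbv13-2* was the single *Trbv* gene apart in KO1134, 33.3% of the 3 genes with enough UMIs, and no gene (0%) was apart in KO1308, also of 3. Without the B cell rich bins no *Trbv* gene was apart in KO1134 either. The share of *Trbv13-2* there was nevertheless alike in both areas. It was 16.7% in the thymus area, defined below (14 of 84 UMIs, 9.42 to 26.4), and 16.7% in the B cell rich bins (4 of 24, 4.74 to 37.4). In the thymus area of WT1101 it was 7.54% (4.84 to 11.1).

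The other beta genes among the 5 highest of a section had few UMIs. *Trbv13-1* had 3, 6 and 5 UMIs, *Trbv16* 5, 1 and 12, *Trbv2* 2, 1 and 14, and *Trbv29* 0, 4 and 7 in KO1134, KO1308 and WT1101. *Trbv4* and *Trbv17* tied with *Trbv13-1* at 3 UMIs in KO1134, and *Trbv19*, *Trbv20* and *Trbv31* tied with *Trbv16* at 12 UMIs in WT1101. Divided by exon length, *Trbv12-2* remained the highest *Trbv* gene in each section. Among 35 genes ordered along the locus, the middle 12, from *Trbv13-1* to *Trbv20*, held 72.6% of *Trbv* UMIs in KO1134 (63.4 to 80.5), 53.8% in KO1308 (42.2 to 65.0) and 58.8% in WT1101 (53.1 to 64.3).

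**Figure D1:**
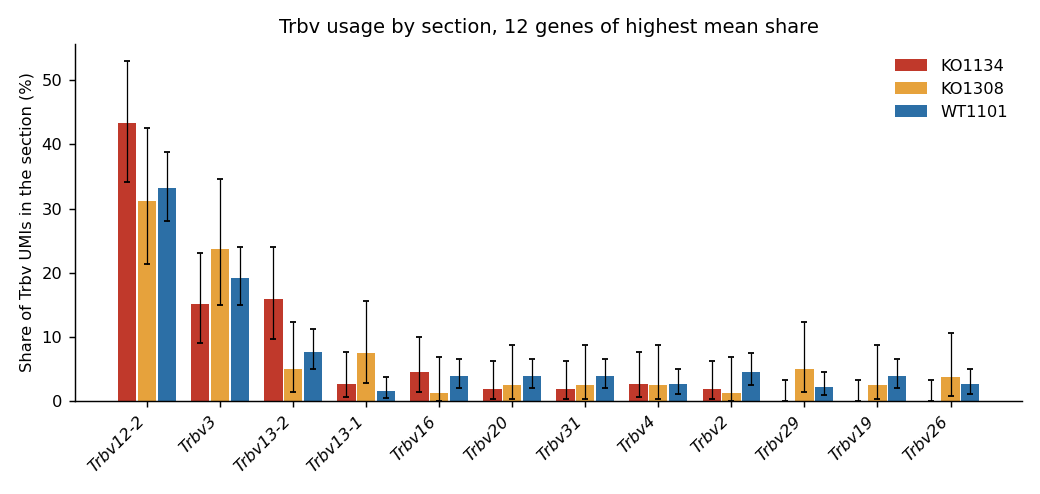
Share of *Trbv* UMIs (percent, vertical axis) for the 12 *Trbv* genes of highest mean share, by section; bars are shares and lines are exact binomial 95% intervals that cover counting error only. *Trbv12-2* is the highest bar in every section, at 43.4%, 31.3% and 33.2%, and most other intervals overlap.

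Among alpha genes, *Trav6d-7* (ENSMUSG00000095756) led in KO1134 with 304 UMIs and in WT1101 with 267, but had 29 in KO1308. Its share was 33.4% (30.4 to 36.6) in KO1134, 9.03% (6.13 to 12.7) in KO1308 and 21.9% (19.6 to 24.4) in WT1101. In both sections that it led, its share was 3.30 times that of the next gene, *Trav14-2*, and it was dominant by the same rule. KO1308 had no dominant *Trav* gene: *Trav6n-7* led with 41 UMIs (12.8%), followed by *Trav6-6* with 39, *Trav6d-6* with 36 and *Trav6d-7* with 29.

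Because *Trav6d-7* and *Trav6n-7* cannot be told apart by exon sequence, they were summed after the data had been seen. Together they had 355 UMIs in KO1134, 70 in KO1308 and 311 in WT1101. With *Trav6-7-dv9*, which had 87, 19 and 39 UMIs, the copies of *Trav6-7* had 442 UMIs or 48.6% of *Trav* in KO1134 (45.3 to 51.9), 89 or 27.7% in KO1308 (22.9 to 33.0) and 350 or 28.7% in WT1101 (26.2 to 31.4). The share in KO1134 was 1.69 times that in WT1101 (1.47 to 1.95) and 1.75 times that in KO1308 (1.39 to 2.23). In KO1308 it was 0.965 times that in WT1101 (0.756 to 1.22). The copies led in all 3 sections once merged, and the lower share of *Trav6d-7* in KO1308 was not seen in the sum.

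The gene numbered *Trav6-6* showed the reverse order. *Trav6d-6* and *Trav6-6*, identical over 344 bases, had 32 and 30 UMIs in KO1134, 36 and 39 in KO1308 and 71 and 69 in WT1101. With *Trav6n-6*, the copies held 8.58% of *Trav* UMIs in KO1134 (6.84 to 10.6), 25.9% in KO1308 (21.2 to 31.0) and 12.6% in WT1101 (10.8 to 14.6). Relative to WT1101 the share was 0.683 (0.513 to 0.903) in KO1134 and 2.06 (1.56 to 2.71) in KO1308, so the KO sections lay on opposite sides of WT. In KO1308 the identical pair *Trav6d-6* and *Trav6-6* (75 UMIs, 23.4%) outnumbered the pair *Trav6d-7* and *Trav6n-7* (70 UMIs, 21.8%), with overlapping intervals. *Trav14-2* had 92 UMIs (10.1%) in KO1134, 13 (4.05%) in KO1308 and 81 (6.65%) in WT1101. Merged with *Trav14d-2* and *Trav14n-2*, its copies held 12.5%, 11.2% and 11.99%, and the intervals overlapped. Merged into subgroups, *Trav6* had 60.6% of *Trav* UMIs in KO1134 (57.4 to 63.8), 56.1% in KO1308 (50.5 to 61.6) and 48.0% in WT1101 (45.2 to 50.9), and *Trav14* followed in each section.

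**Figure D2:**
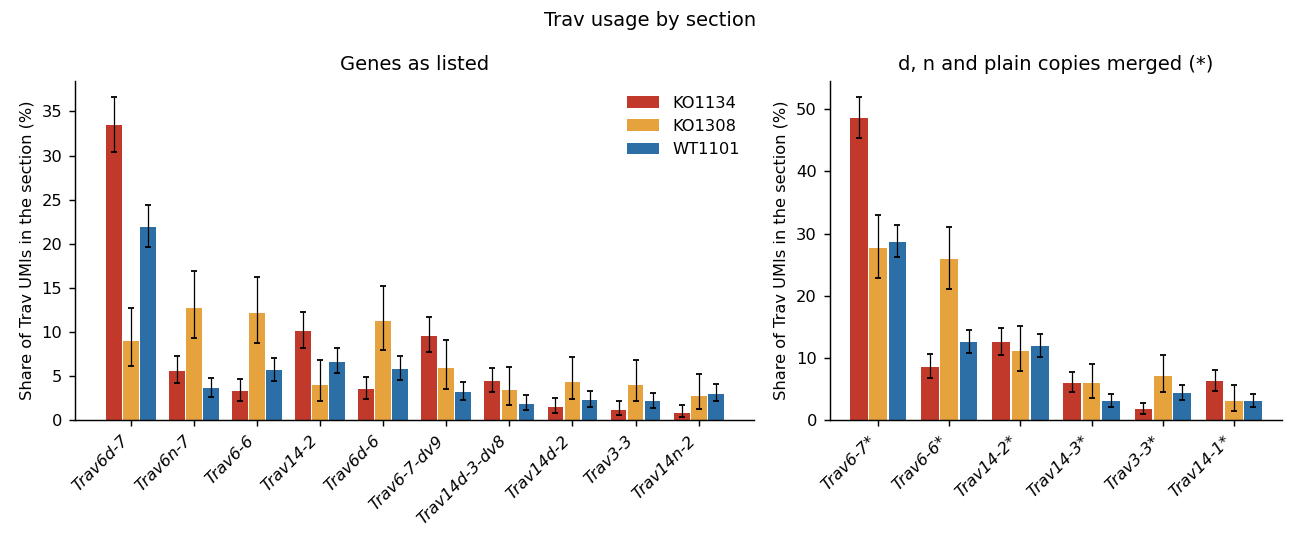
Share of *Trav* UMIs (percent, vertical axes) by section, left for the 10 genes of highest mean share as listed and right after merging the d, n and plain copies of a gene number; bars are shares and lines are exact binomial 95% intervals that cover counting error only. KO1308 lies low for *Trav6d-7* as listed, at 9.03%, but at 27.7% beside 28.7% in WT1101 once *Trav6-7* copies are merged, whereas KO1134 stands at 48.6%.

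By the rule for genes apart from WT, 7 of 23 *Trav* genes with enough UMIs (30.4%) were apart in KO1134 and 4 of 15 (26.7%) in KO1308. In KO1134 the share was higher for *Trav14n-1* (25 UMIs against 9, a ratio of 3.72, 1.68 to 9.06), *Trav6-7-dv9* (2.99, 2.03 to 4.48) and *Trav14d-3-dv8* (40 against 23, 2.33, 1.36 to 4.08). It was lower for *Trav7d-3* (2 against 18, 0.149), *Trav8n-2* (3 against 26, 0.155), *Trav7-3* (3 against 20, 0.201) and *Trav14n-2* (8 against 37, 0.290). Of the 40 *Trav14d-3-dv8* UMIs in KO1134, 17 lay in B cell rich bins, of which WT1101 had none by the rule given above. In the thymus area, defined below, its share was 3.05% (1.90 to 4.63) in KO1134 and 1.78% (1.09 to 2.73) in WT1101, with overlapping intervals. In KO1308 the share was higher for *Trav6n-7* (3.54, 2.25 to 5.54) and *Trav6-6* (2.14, 1.41 to 3.22) and lower for *Trav6d-7* (0.412, 0.271 to 0.606) and *Trav7-3*. Both genes that were higher in KO1308, and *Trav6d-7*, belong to pairs of identical sequence, as do *Trav14n-1* and *Trav14n-2*. Summed with its identical copy *Trav14d-1*, *Trav14n-1* had 48 UMIs in KO1134 and 25 in WT1101, a share ratio of 2.57 (1.56 to 4.35). *Trav14n-2* summed with *Trav14d-2* had 22 and 65, a ratio of 0.454 (0.266 to 0.745).

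*Trav7-3* was the gene apart from WT in both KO sections. It lies from 53443249 to 53443839, and 29.2% of its 50-base stretches were unique. Its UMIs were 3 in KO1134, 0 in KO1308 and 20 in WT1101, and 0 of 321 UMIs allow a share of up to 0.935%, below the 1.64% (1.01 to 2.52) of WT1101.

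As levels rather than shares, 4 of the 23 *Trav* genes were at least 2-fold higher and 8 at least 2-fold lower in CPM in KO1134 than in WT1101, beside 17.4% and 8.42% of 21069 genes of all kinds. In KO1308, 0 of 15 were higher and 6 lower, beside 24.3% and 5.01% of 20915 genes. Among the 3 *Trbv* genes, 0 were higher and 1, *Trbv3*, was lower in KO1134, and 0 were higher and 2 lower in KO1308. The median CPM ratio was 0.666 and 0.943 for these *Trav* genes in KO1134 and KO1308, and 0.627 and 0.474 for the *Trbv* genes. Over all genes it was 1.05 and 1.19, a shift of 0.07 and 0.25 on the log2 scale.

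How even the usage was is given as the Shannon entropy of the shares divided by the log of the number of genes detected in any of the 3 sections, 25 *Trbv* and 107 *Trav* genes, so that 1 stands for equal use of all of them and a section with fewer detected genes scores lower. For *Trbv* the evenness was 0.604 in KO1134 (0.532 to 0.677), 0.689 in KO1308 (0.614 to 0.764) and 0.735 in WT1101 (0.692 to 0.777). For *Trav* it was 0.605 (0.582 to 0.627), 0.675 (0.649 to 0.701) and 0.770 (0.752 to 0.788). KO1134 lay below WT1101 by more than counting error in both families, with differences of -0.130 (-0.215 to -0.046) for *Trbv* and -0.166 (-0.194 to -0.137) for *Trav*. KO1308 differed from WT1101 by -0.046 (-0.132 to 0.040) and -0.095 (-0.127 to -0.064). KO1134 minus KO1308 was -0.085 (-0.189 to 0.020) for *Trbv*, an interval that includes 0, and -0.070 (-0.105 to -0.036) for *Trav*. The mean of both KO sections minus WT was -0.088 and -0.130. Divided by the log of the genes detected in the section itself, an alternative added after the data were seen, the difference was -0.062 (*Trbv*) and -0.119 (*Trav*) in KO1134, but 0.048 and 0.031 in KO1308, where the sign thus depends on the denominator. For *Trbv* in KO1134 the interval then includes 0. The measure as first given also falls with fewer UMIs. At the least depth of the 3 sections, likewise added later, the difference was -0.105 and -0.156 in KO1134, and -0.007 and -0.067 in KO1308.

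The effective number of genes, the inverse of the chance that 2 UMIs are of the same gene, was computed so that it depends little on depth. For *Trav* it was 7.09 in KO1134 (6.28 to 8.14), 15.8 in KO1308 (13.6 to 18.8) and 15.0 in WT1101 (13.1 to 17.4). For *Trbv* it was 4.25 (3.34 to 5.86), 6.20 (4.64 to 9.32) and 6.18 (5.23 to 7.56). On this measure, for genes as listed, KO1134 alone stood apart for *Trav*, and KO1308 overlapped WT1101 in both families. The number was not computed with identical copies merged, and it rises where UMIs are split between such copies. *Trav6d-7* and *Trav6n-7* had 29 and 41 UMIs in KO1308 but 267 and 44 in WT1101. The order of KO1308 and WT1101 for *Trav* is therefore uncertain. Entropy weighs rare genes more and the effective number common ones.

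*Trav6d-7* in KO1134 lay in 281 bins and in 46 of the 50 squares of 500 µm that held any *Trav* UMI, and the fullest square held 4.93% of its UMIs. In WT1101 it lay in 90 of 109 such squares, with 4.12% in the fullest. *Trbv12-2* lay in 26 of 37, 21 of 39 and 59 of 90 squares with *Trbv* UMIs in KO1134, KO1308 and WT1101, and *Trav6n-7*, the leading gene of KO1308, in 29 of 75 squares there. None of these genes was thus limited to 1 spot of the tissue. Squares with at least 30 *Trav* UMIs numbered 9 in KO1134, where *Trav6d-7* led 6 of them and reached its highest local share, 45.2% of 31 UMIs (27.3 to 64.0), at 4.75 mm by 1.25 mm. In WT1101 a single square had 30 UMIs, led by *Trav6d-7* with 30.0%, and in KO1308 and for *Trbv* in every section no square had enough.

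In KO1134 the alpha genes differed between areas of the section. The thymus area was made of bins where the surrounding share of UMIs from the 6 thymus genes reached 50% of its mean over tissue, B cell rich bins left out. It held 688 *Trav* UMIs, and the B cell rich bins held 172. *Trav6d-7* and *Trav6n-7* together had 320 of the 688 (46.5%, 42.7 to 50.3) but 12 of the 172 (6.98%, 3.66 to 11.9), a ratio of 6.67 (3.76 to 13.04). *Trav6-7-dv9* had 81 and 5 UMIs, a ratio of 4.05 (1.67 to 12.8). The reverse was seen for *Trav14d-3-dv8* with 21 and 17 UMIs (0.309, 0.155 to 0.623), *Trav6d-6* with 17 and 12 (0.354, 0.159 to 0.813) and *Trav14n-1* with 15 and 10 (0.375, 0.158 to 0.933). *Trav14-2* had 76 and 15 UMIs, and the interval of its ratio, 1.27, included 1.

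The effective number of *Trav* genes as listed was 5.24 in the thymus area of KO1134 (4.63 to 6.04) and 24.8 in its B cell rich bins (20.1 to 32.5). Evenness was 0.525 (0.499 to 0.551) and 0.738 (0.707 to 0.768), although the B cell rich bins had fewer UMIs. In the thymus area of WT1101 the effective number was 14.9 (13.04 to 17.4), and in that of KO1308 it was 15.6 (13.1 to 19.2). In the other tissue of KO1134, neither thymus area nor B cell rich, it was 6.73 (4.09 to 19.1) over 45 UMIs, and the pair *Trav6d-7* and *Trav6n-7* had 42.2% (27.7 to 57.8). The number was thus low in the thymus area of KO1134. For its other tissue the interval also covered the values of the thymus areas of WT1101 and KO1308. *Trbv* had 84 and 24 UMIs in the 2 areas of KO1134, and *Trbv12-2* led both, with 44.0% and 37.5%. It also led in the thymus area of WT1101, with 32.8%. In the thymus area of KO1308 *Trbv3* led, with 15 of 62 *Trbv* UMIs (24.2%, 14.2 to 36.7). *Trbv12-2* followed there with 13 (21.0%, 11.7 to 33.2). KO1308 had 13 *Trav* UMIs in B cell rich bins, too few to compare, and 47 of its 321 *Trav* UMIs (14.6%) lay off the tissue bins, beside 4 of 909 in KO1134 and 31 of 1218 in WT1101.

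**Figure D3:**
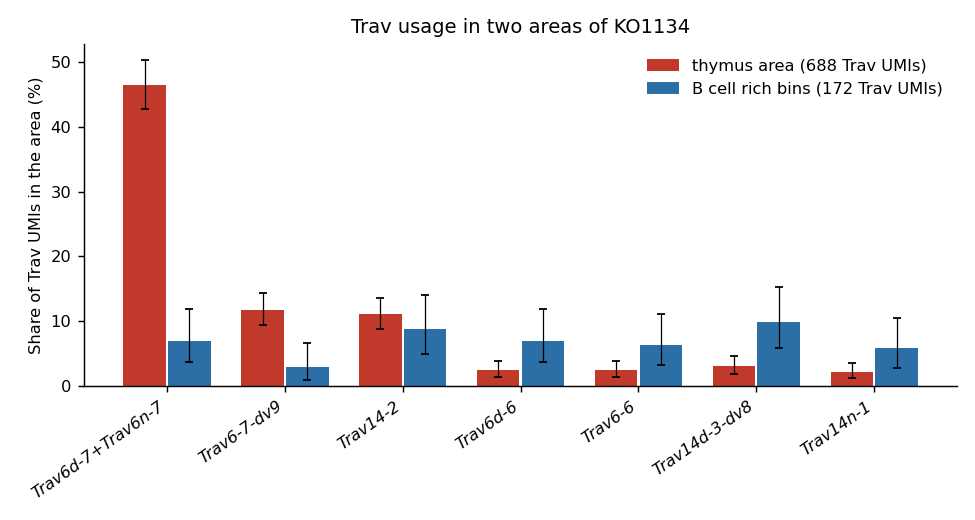
Share of *Trav* UMIs (percent, vertical axis) of 7 genes or pairs of identical genes in the thymus area and the B cell rich bins of KO1134, with exact binomial 95% intervals that cover counting error only. The pair *Trav6d-7* and *Trav6n-7* stands at 46.5% and 6.98%, while *Trav14d-3-dv8* stands at 3.05% and 9.88%.

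**Figure D4:**
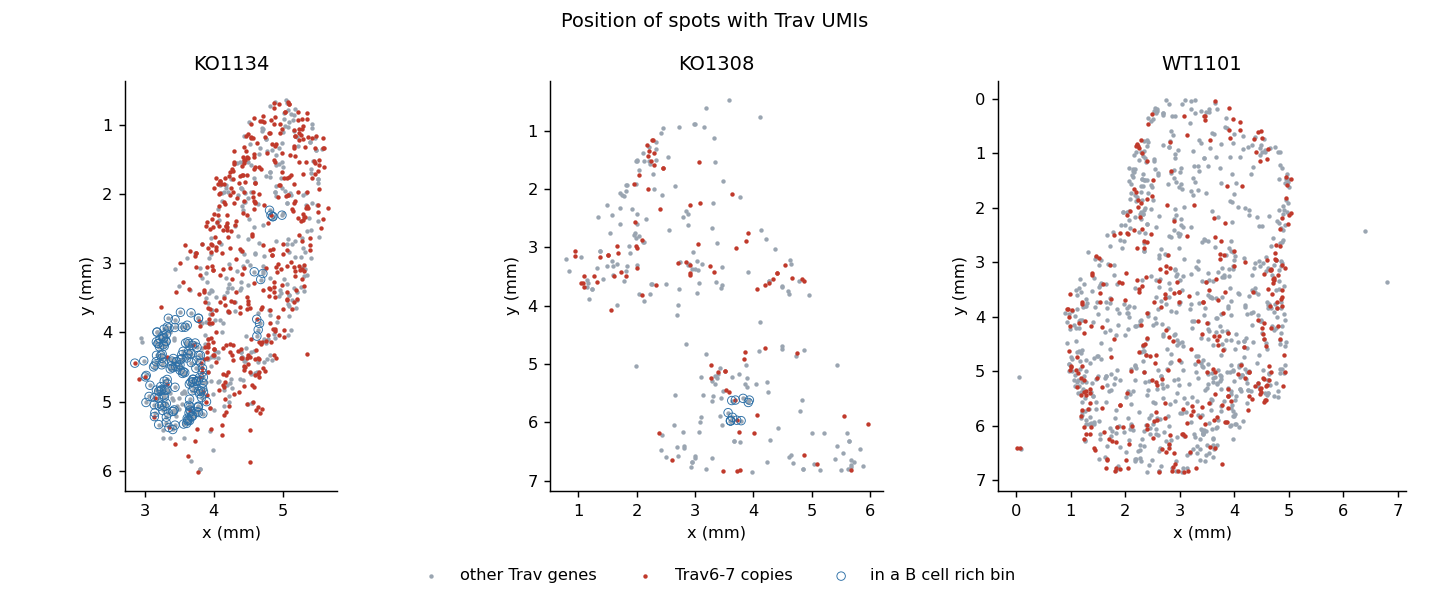
Spots with *Trav* UMIs in each section by position (x and y in mm), with copies of *Trav6-7* in red, other *Trav* genes in grey and spots in B cell rich bins circled in blue. Red spots are spread over the thymus area of KO1134 and are few in its B cell rich bins, and in KO1308 and WT1101 they are mixed with grey.

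Whether UMIs of the same gene lay near each other was measured over pairs in different bins with centres within 100 µm. The chance that such a pair was of the same gene was divided by that for any pair in different bins of the section, and a value above 1 means that a gene's UMIs lay together. For *Trav* the ratio was 1.22 in KO1134 (297 of 1724 pairs), 1.27 in KO1308 (13 of 163) and 1.26 in WT1101 (111 of 1316). The intervals, 1.10 to 1.35, 0.684 to 2.10 and 1.05 to 1.51, overlapped. For *Trbv* it was 1.54 (9 of 25 pairs), 2.46 (7 of 18) and 0.697 (9 of 80), with intervals of 0.768 to 2.46, 1.10 to 4.07 and 0.327 to 1.26. Pairs share UMIs, so these intervals are too narrow. Pairs within 1 bin were left out because they can come from 1 molecule counted more than once. Of such pairs, 10 of 10, 13 of 13 and 18 of 24 were of the same gene for *Trbv*. For *Trav* these were 51 of 119, 16 of 32 and 61 of 119.

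The constant regions gave a second view of the beta chain with far more UMIs. *Trbc1*, on chromosome 6 from 41538218 to 41539881, had 42688 UMIs in KO1134, 21140 in KO1308 and 105395 in WT1101, and *Trbc2*, from 41546730 to 41548352, had 31859, 39944 and 178111. The *Trbc1* share of both was 57.3% (56.9 to 57.6), 34.6% (34.2 to 34.99) and 37.2% (37.0 to 37.4). Part of their coding sequence is shared, but all of the last 300 stretches of 50 bases were unique in each. KO1134 was the section with more *Trbc1* than *Trbc2*, and the KO sections lay on opposite sides of WT1101.

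Within KO1134 the *Trbc1* share was 60.8% (60.4 to 61.2) in the thymus area and 39.7% (38.8 to 40.6) in the B cell rich bins, close to the 37.1% of the thymus area of WT1101. Over squares of 500 µm with at least 100 beta constant UMIs, it ranged from 36.8% to 68.0% in 42 squares of KO1134, with 33 squares above 50%, and from 32.8% to 45.5% in 107 squares of WT1101, none above 50%. In KO1308 60 squares ranged from 5.78% to 44.6%. The lowest 2 there were neighbours at the edge of the tissue, 0.75 mm along x, with 5.78% of 1141 UMIs (4.50 to 7.30) and 12.1% of 645 UMIs (9.68 to 14.9), and none of their bins was B cell rich. The 5 squares of KO1308 below 25% held 23 *Trav* UMIs, of which 9 were copies of *Trav6-7* (39.1%, 19.7 to 61.5), beside 27.2% (21.9 to 33.0) in its other 55 squares, a difference not detectable at this depth.

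*Trav* usage moved with the *Trbc1* share across KO1134. Copies of *Trav6-7* held 61.9% of *Trav* UMIs (56.7 to 66.9) in the 19 squares with a *Trbc1* share of at least 60%, 55.3% (49.3 to 61.2) in the 14 squares between 50% and 60%, and 20.7% (15.8 to 26.3) in the 9 squares under 50%, which held 1571 of the B cell rich bins. Over the 34 squares with at least 10 *Trav* UMIs the correlation between both shares was 0.78 (Pearson) and 0.59 (Spearman). In WT1101 it was 0.09 and 0.13 over 62 squares, and in KO1308 -0.01 and 0.14 over 8. The gamma and delta constant genes moved with the same shares in KO1134: their summed level had medians of 1570, 948 and 231 CPM over the 3 groups of squares, from the highest *Trbc1* share to the lowest, and a Spearman correlation of 0.52 with the *Trav6-7* share. Their part in it was not tested. These are descriptions of neighbouring squares of 1 section, which share the library.

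**Figure D5:**
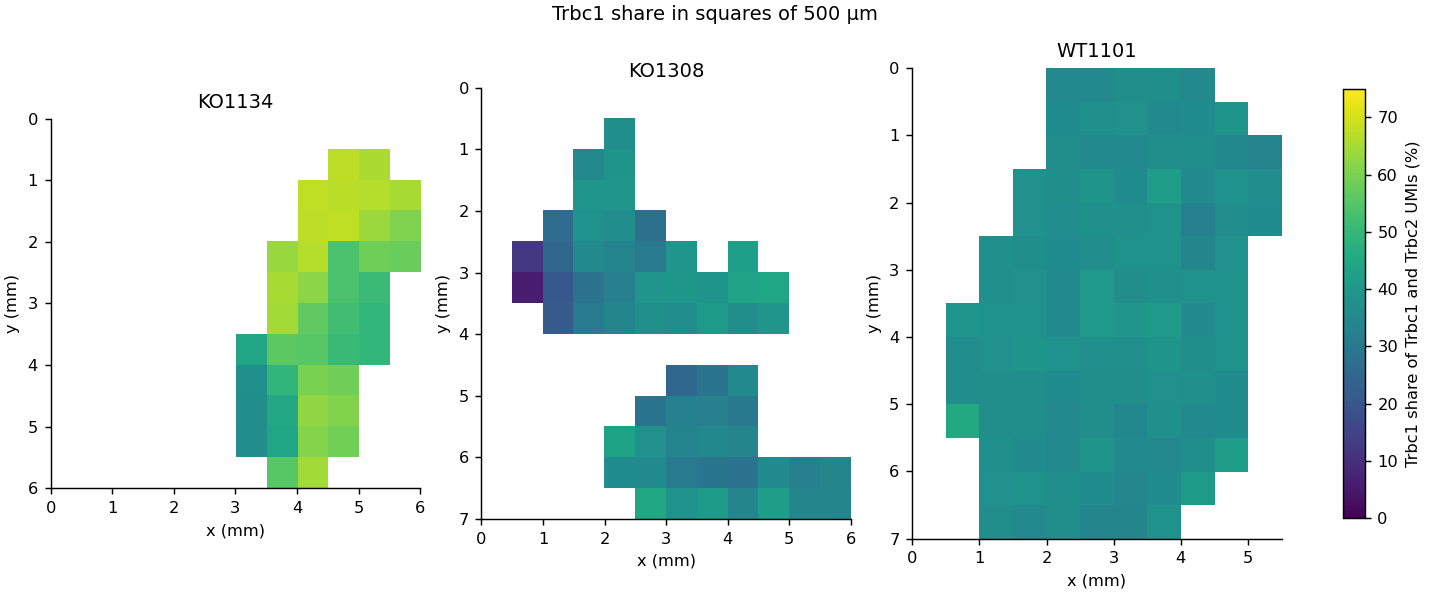
*Trbc1* share of *Trbc1* and *Trbc2* UMIs (percent, colour scale from 0 to 75) in squares of 500 µm with at least 100 such UMIs, by position (x and y in mm) in each section. Squares of WT1101 lie between 32.8% and 45.5%, most squares of KO1134 lie above 50%, and KO1308 has a patch at its left edge that reaches 5.78%.

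Genes of receptor assembly and of the receptor complex were lower in the KO sections. Of 20 listed genes, 14 were at least 2-fold lower in CPM in KO1134 and 11 in KO1308, and 0 were at least 2-fold higher, beside the 8.42% and 5.01% of all genes that were lower. The median ratio was 0.464 and 0.493. *Rag1* and *Rag2* encode the recombinase that cuts the receptor genes. *Rag1* had 30.8 CPM in KO1134, 293 in KO1308 and 652 in WT1101, and *Rag2* 1.34, 32.1 and 95.04 CPM. Their ratios to WT1101 were 0.047 (0.044 to 0.050) and 0.014 (0.010 to 0.019) in KO1134, and 0.450 (0.437 to 0.462) and 0.338 (0.311 to 0.367) in KO1308. Both were therefore far lower in KO1134 than in KO1308. In the thymus area *Rag1* had 40.9, 353 and 676 CPM in KO1134, KO1308 and WT1101, so leaving out the B cell rich bins did not remove the order.

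*Dntt*, which adds bases at the joints, had ratios of 0.338 and 0.489 in KO1134 and KO1308, and *Ptcra*, the partner of a new beta chain, 0.160 and 0.474. Of the joining machinery, *Lig4*, *Xrcc4* and *Xrcc6* had ratios of 0.394, 0.473 and 0.489 in KO1134, whereas *Xrcc5* had 0.878. *Trac* had 306, 266 and 487 CPM. The receptor's signalling chains *Cd3d*, *Cd3e*, *Cd3g* and *Cd247* had ratios of 0.418, 0.468, 0.490 and 0.399 in KO1134, and 0.492, 0.837, 0.421 and 0.673 in KO1308. *Trdc*, the delta constant region, was the listed gene of highest ratio in KO1134, 1.87 (1.78 to 1.96), with 126 CPM against 67.7 in WT1101 and 44.4 in KO1308.

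Gamma constant regions were higher in KO1134. *Tcrg-C1* and *Tcrg-C2* are in part alike in sequence, so the split between them is uncertain, whereas all 50-base stretches of *Tcrg-C4* were unique. *Tcrg-C1* had 295 CPM in KO1134, 76.8 in KO1308 and 47.5 in WT1101, *Tcrg-C2* 258, 79.5 and 50.7, and *Tcrg-C4* 298, 48.3 and 27.4 CPM. The ratios in KO1134 were 6.20, 5.09 and 10.9, and in KO1308 1.61, 1.57 and 1.76. In the thymus area of KO1134 *Tcrg-C4* had 397 CPM, against 26.0 CPM in its B cell rich bins. The 4 gamma and delta constant genes summed to between 52.3 and 1761 CPM over the squares of KO1134, with a median of 1064, beside medians of 282 in KO1308 and 185 in WT1101. The part of gamma delta T cells in the UMIs of *Trav* genes that can join the delta chain was not tested.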

How the data were processed

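Spatial transcriptomes of 3 thymus sections (2 KO, 1 WT) were used. The authors aligned the reads with STAR and counted them with BSTMatrix against GRCm38, named in the submitters' processing notes, and deposited matrices of raw UMI counts for each spot, not normalised. Members and lists were chosen with earlier results of these data known.

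UMIs were summed over all spots of a section. Tissue bins of 27 µm had at least 300 genes and at most 30% mitochondrial UMIs, in connected groups of at least 200 bins. Shares have exact binomial, levels exact Poisson and ratios exact conditional binomial intervals. Entropy and effective numbers have delta-method intervals. Intervals and limits for a count of 0 (3 counts) cover counting error only. Counts of UMIs were not divided by gene length unless stated. Annotation and sequences came from GENCODE M21 (GRCm38), which holds 99.8% of the listed genes and all 163 members.

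Named were the 5 genes of highest share per family and section, those apart from WT, the leading genes by position, and listed constant and assembly genes. Computations used Python 3.11.15, NumPy 2.4.6, pandas 2.3.3 and SciPy 1.17.1 and were tested on simulated data. The study's other assays were not used here.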

Additional observations from a re-analysis of the deposited data

Results flagged for a closer look

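Gamma chain variable segments, which belong to no comparison of the report, were higher in KO1134 than in WT1101: the 7 listed genes had 47 UMIs in KO1134, 4 in KO1308 and 4 in WT1101, a CPM ratio of 15.6 (5.72 to 59.8) in KO1134 and of 1.97 (0.367 to 10.6) in KO1308. They were flagged as a signal outside the main measurement that lies above its level in the WT section. *Trgv2* had 24, 1 and 1 UMIs and *Tcrg-V1* 20, 1 and 1, and in KO1134 24 of 24 and 18 of 20 lay in the thymus area and 0 in B cell rich bins.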

How the results depend on the processing

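Of 226 values recomputed for the main results under alternatives, 181 stayed within the interval or within 1.5 times the count, 42 moved and 3 changed direction. In KO1134 the evenness difference from WT stayed below 0 under all 13 alternatives, between -0.240 and -0.063 for *Trav* and -0.180 and -0.062 for *Trbv*. With only genes of at least 10 UMIs in each section, the *Trav* difference was -0.063 in KO1134, 0.108 in KO1308 and 0.023 for the mean, the last 2 with the sign turned. Divided by each section's own detected genes, it was -0.119, 0.031 (sign turned) and -0.044 for *Trav*, and 0.048 in KO1308 and -0.00696 for the mean for *Trbv*. In KO1308 the *Trav* difference was -0.163 without the leading gene. Without B cell rich bins it was -0.240 in KO1134 and -0.167 for the mean. With copies of a gene number merged it was -0.203, -0.130 and -0.167 in KO1134, KO1308 and the mean. The *Trbv* difference in KO1308 was not below 0 under 3 of 13 alternatives, at most 0.048.

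The *Trav* leading share in KO1134 was 39.8% without B cell rich bins. In KO1134, KO1308 and WT1101 it was 60.6%, 56.1% and 48.0% by subgroup (mean KO minus WT 10.3 points), 39.1%, 23.4% and 25.5% with identical sequences merged (5.68), and 48.6%, 27.7% and 28.7% with copies merged (9.44). *Trbv* genes apart in KO1134 numbered 0 in place of 1 without B cell rich bins, at 50 UMIs or more, and at 3-fold. *Trav* genes apart numbered 2 in KO1134 at 50 UMIs and 12 at 1.5-fold, and 2 in KO1308 at 3-fold or with identical sequences merged. Local ratios within 50 µm were 2.44, 6.33 (1 pair) for *Trbv* and 1.05, 0 (no pair of 29) for *Trav* in KO1134 and KO1308, with KO minus WT of 3.41 and -0.893, and within 250 µm the *Trbv* mean difference was 0.219.

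With 1 KO section left out, KO minus WT ranged from -0.166 to -0.095 (*Trav* evenness), -0.130 to -0.046 (*Trbv* evenness), -9.15 to 11.5 points (*Trav* leading share), -1.98 to 10.1 points (*Trbv* leading share), 0.842 to 1.77 (*Trbv* local ratio) and -0.042 to 0.001 (*Trav* local ratio). Merging by sequence or copy, equal depth, each section's own denominator and *Trbc1* by area were chosen after seeing the data. No paired analysis was possible because there is 1 WT section, and replicate numbers here only name the sections. The cause of these shifts was not tested. Depth limits *Trbv* most, with 80 to 313 UMIs a section.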

Other observations

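Other segments of the alpha, beta and delta chains were counted as well. Joining segments of the alpha chain, 60 listed *Traj* genes, had 103 UMIs in KO1134, 26 in KO1308 and 303 in WT1101, or 0.453 (0.358 to 0.568) and 0.169 (0.109 to 0.253) times the CPM of WT1101. The 14 *Trbj* genes had 26, 59 and 132 UMIs, with ratios of 0.262 (0.165 to 0.402) and 0.881 (0.637 to 1.21). KO1134 was thus lowest for *Trbj* and KO1308 for *Traj*. The 6 *Trdv* genes had 145, 105 and 289 UMIs, with ratios of 0.668 (0.543 to 0.818) and 0.716 (0.567 to 0.899).

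Genes of the natural killer T lineage, *Zbtb16* and *Klrb1c*, summed to 7.59, 13.04 and 7.58 CPM in KO1134, KO1308 and WT1101. Most of these UMIs were of *Klrb1c*, with 196, 194 and 291, beside 41, 81 and 24 of *Zbtb16*. In KO1134 the CPM ratio to WT1101 was 2.27 (1.34 to 3.93) for *Zbtb16* and 0.897 (0.744 to 1.08) for *Klrb1c*. In KO1308 it was 6.65 for *Zbtb16* and 1.31 for *Klrb1c*, and both intervals excluded 1. *Zbtb16* was thus higher in both KO sections, which the sum does not show for KO1134. Markers of other cells also differed between the sections. In the same order, the follicle and venule genes *Glycam1*, *Cxcl13* and *Cr2* summed to 136, 73.1 and 3.7998 CPM, and plasma cell genes to 517, 953 and 218. The *C1q* genes of macrophages summed to 615, 537 and 337 CPM, and fat cell genes to 111, 262 and 1.92. Of these genes, the plasma cell gene *Xbp1* was lower in KO1134 (68.5 CPM) than in WT1101 (83.0), but higher in KO1308 (112). *C1qb* in KO1308 (116 CPM) lay close to WT1101 (121), and was higher in KO1134 (207). The other follicle, venule, plasma cell, macrophage and fat cell genes were higher in both KO sections. The part of these cells in the variable gene shares was not tested beyond the areas given above.

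The most A bases in any 20 bases of a member's exon sequence had a Spearman correlation with its UMIs of 0.20 to 0.36 over 128 *Trav* genes and of -0.14 to 0.02 over 35 *Trbv* genes, given as a description.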
